A study of Mus musculus with 40 samples.

Results

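A/J and SWR/J are inbred mouse strains that develop squamous lesions of the lung when N-nitroso-tris-chloroethylurea (NTCU), an alkylating agent, is painted on the skin. The strains were compared at matched grades, across all genes. The 16 samples were those of the 40 in the series that had passed quality control and were graded normal or moderate to severe dysplasia, with 6 samples from A/J and 10 from SWR/J mice, all female. RNA came from lesions or airway isolated by laser capture microdissection (LCM) or from whole lung sections, and expected counts per gene from RSEM were deposited. RSEM divides a read that aligns to several genes among them, so that an expected count need not be whole.

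The normal A/J group held 2 LCM samples and 1 whole lung sample, and the normal SWR/J group held 1 LCM sample and 3 whole lung samples. These mice received the vehicle, acetone, and so a dose of 0 µmol. The A/J dysplasia group held 2 LCM samples and 1 whole lung sample from mice given 14 µmol of NTCU. The SWR/J dysplasia group held 3 LCM and 3 whole lung samples from mice given 25 or 30 µmol, so strain and dose cannot be told apart among the dysplasia samples. A/J LCM normal replicate 2 is graded normal and vehicle-treated in its labels, while its free-text description reads mild dysplasia. Which samples came from 1 animal is not stated in the labels, so the p-values measure the spread between these samples, which may be technical in part.

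Summed expected counts ranged from 10027565 to 14961501 per A/J sample and from 3447363 to 14157267 per SWR/J sample. The median transcript integrity number (TIN), a measure of how evenly reads cover transcripts and so of RNA quality, ranged from 53.7 to 69.6 in A/J and from 23.7 to 60.7 in SWR/J. Strain and RNA integrity are therefore partly confounded. TIN, tissue and grade were terms of the model, and a fold change below is A/J minus SWR/J on the log2 scale after adjustment for them, so it can differ from the ratio of the raw levels. Levels are counts per 1000000 counts of a library (CPM), which are not divided by gene length. Markers of lung epithelium were present in every sample. Alveolar type 2 markers summed to between 3668 and 24690 CPM in A/J and between 1185 and 25394 CPM in SWR/J, and club cell markers to between 20531 and 213401 CPM and between 1004 and 91783 CPM. The direction of 1 known strain difference was checked first. Dysf encodes dysferlin, a membrane repair protein of muscle, and A/J mice are known to carry an insertion in this gene. Dysf was at 1.32, 3.87 and 5.75 CPM in A/J (lowest, median, highest) and at 7.03, 16.7 and 29.1 CPM in SWR/J, so that the groups did not overlap. Its adjusted p was 0.0906 (log2 fold change −1.67 ± 0.48 SE) and 0.0217 without the TIN term.

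Inbred strains differ from each other by single bases, by inserted, deleted or duplicated segments, and by the number of copies of gene families such as the histocompatibility genes, the Ly49 receptors of natural killer cells and clusters of zinc finger genes. The reads of both strains were aligned to a reference made from another strain, C57BL/6J. Where the reference holds several near-identical genes, a few bases decide to which of them a read is assigned. Gm12033 and Gm13394, both Gapdh-like sequences, and Rps3a and Gm9000, related to a protein of the small ribosomal subunit, are shown because their levels were exchanged between the strains. The windows are 50 bases, the length of a read, taken from the reference (NCBIM37, the assembly of mm9) in coding exons, or for Gm13394 and Rps2-ps13 in exons of transcripts without a coding sequence. Capitals mark the bases that differ within a pair.
Gm12033 (chr11:20235647-20235696, minus strand): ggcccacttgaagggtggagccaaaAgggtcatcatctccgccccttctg
Gm13394 (chr2:28789760-28789809, minus strand): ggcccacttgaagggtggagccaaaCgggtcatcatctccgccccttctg
Rps3a (chr3:85945253-85945302, minus strand): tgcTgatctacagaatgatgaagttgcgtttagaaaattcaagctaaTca
Gm9000 (chr13:109461009-109461058, plus strand): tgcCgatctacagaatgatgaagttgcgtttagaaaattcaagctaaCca
Rps2 (chr17:24857962-24858011, plus strand): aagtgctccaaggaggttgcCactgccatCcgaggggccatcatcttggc
Rps2-ps13 (chrX:50252188-50252237, plus strand): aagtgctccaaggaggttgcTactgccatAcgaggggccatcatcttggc
Counted from 1 at the 5′ end of the window, the differences are A26C between Gm12033 and Gm13394, T4C and T48C between Rps3a and Gm9000, and C21T and C30A between Rps2 and Rps2-ps13. Over their whole alignments, Gm12033 and Gm13394 differed at 2 of 1251 bases, Rps3a and Gm9000 at 9 of 861, and Rps2 and Rps2-ps13 at 7 of 882. Of the 50-base windows along these alignments, 91.7%, 48.4% and 66% were identical in both members.

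Of 15587 genes tested across the 16 samples, 280 (1.8%) had an adjusted p under 0.05 for strain by edgeR's quasi-likelihood test with Benjamini-Hochberg adjustment. Of these, 68 were higher in A/J and 212 were higher in SWR/J, which is 0.436% and 1.36% of the genes tested. The median log2 fold change over all genes was −0.09. All samples are bulk tissue, in which fewer cells of a type and less RNA per cell cannot be told apart. The lowest and highest CPM of the strains did not overlap for 54 of the 280 genes, against 152 (0.975%) of all genes tested. The count of 280 depended on the samples and on the TIN term. It was 136 without that term (68 in each direction), of which 67 were among the 280, and it lay between 95 and 835 when 1 sample was left out. It was 95 without A/J whole lung dysplasia replicate 1, 108 without SWR/J LCM normal replicate 1, 549 without A/J whole lung normal replicate 1 and 835 without SWR/J whole lung dysplasia replicate 2. Other samples that moved it by over 1.5 times were SWR/J LCM dysplasia replicate 1 (109), SWR/J whole lung normal replicate 2 (125), A/J LCM normal replicate 2 (128) and A/J LCM dysplasia replicate 2 (184).

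A set of 48 genes, 11 higher in A/J and 37 higher in SWR/J, was called in all 16 fits that left out 1 sample and also without the TIN term. These 48 genes make up 0.308% of the genes tested. They were chosen by their results, so other fits to these samples, given below, are not independent tests of them. The ranges of the strains did not overlap for 39 of them, against 0.975% of all genes tested. All 48 had the same direction in the 4 combinations of tissue and grade, against 3974 of all 15587 genes. Both traits follow in part from how the set was chosen. At least 50% of the transcript lay in near-identical copies (95% identity or more) for 21 of the 48, against 17.9% of the 280 called genes and 8.96% of all genes tested. Pseudogenes made up 9 of the 48 (18.8%), against 6.79% of the 280 called genes and 3.01% of all genes tested.

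**Figure D1:**
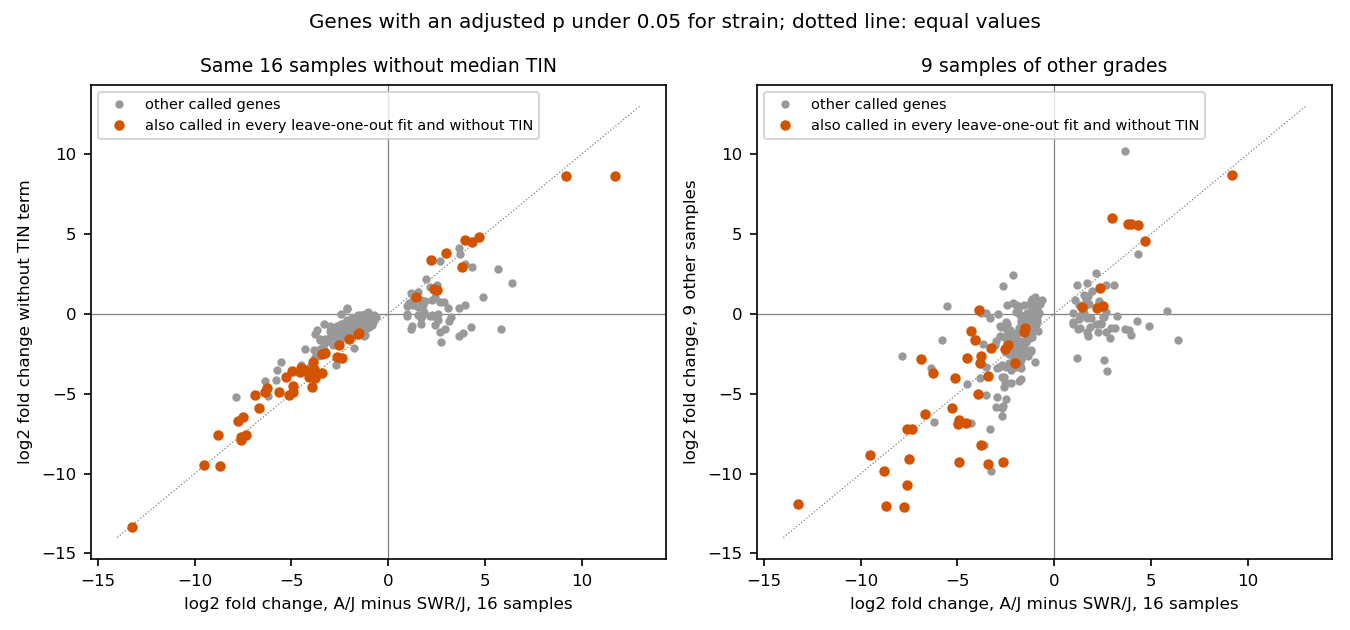
Each point is 1 of the 280 genes called for strain in the 16 samples, with its log2 fold change (A/J minus SWR/J) on the x axis and, on the y axis, that without the TIN term (left) or in the 9 samples of other grades (right, 270 genes). The 48 genes in orange lie near the line of equal values on the left, while many of the grey genes higher in A/J lie near or below 0 in both panels.

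The exchanged levels of near-identical genes were among the largest differences. Gm12033 was at 0, 0.0615 and 1.02 CPM in A/J (lowest, median, highest) and at 40.1, 99.3 and 282 CPM in SWR/J, and Gm13394 was at 47.9, 69.3 and 137 CPM in A/J and at 0, 0.0759 and 1.16 CPM in SWR/J. Every A/J sample had more Gm13394 and every SWR/J sample more Gm12033, with no overlap of the strains for either gene. The log2 fold changes were −8.71 ± 0.90 SE (adjusted p = 0.000205) and 11.72 ± 0.87 SE (adjusted p = 1.92e-05). Rps3a was at 1.86, 8.9 and 68.6 CPM in A/J and at 899, 1969 and 4269 CPM in SWR/J, a log2 fold change of −7.34 ± 0.93 SE (adjusted p = 0.00138). Gm9000 was at 547, 619 and 759 CPM in A/J and at 0, 1.07 and 8.56 CPM in SWR/J, with a log2 fold change of 9.16 ± 1.28 SE (adjusted p = 0.00273). The pattern was thus the same as for Gm12033 and Gm13394. A related gene, Gm10119, lay between 510 and 860 CPM in A/J and between 91.1 and 936 CPM in SWR/J and was not called (adjusted p = 0.355).

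Rps2, another protein of the small ribosomal subunit, was at 116, 145 and 216 CPM in A/J and at 3.02, 5.53 and 10.7 CPM in SWR/J, and rose towards A/J by 4.31 ± 0.35 SE on the log2 scale (adjusted p = 4.15e-05). Its copy Rps2-ps13 on chromosome X was at 0, 0.273 and 4.61 CPM in A/J and at 110, 245 and 771 CPM in SWR/J (adjusted p = 0.00138). When the counts of near-identical genes were summed into families, an alternative chosen after seeing the data, these differences were not called. The family of Rps3a summed to between 1162 and 1629 CPM in A/J and between 990 and 5209 CPM in SWR/J (log2 fold change −0.81 ± 0.48 SE, adjusted p = 0.321). The Rps2 family (log2 fold change −1.39 ± 0.51 SE, adjusted p = 0.149) and the Gapdh-like family of Gm12033 (0.43 ± 0.39 SE, adjusted p = 0.502) were not called either. The estimate of the Rps2 family was towards SWR/J, while Rps2 itself was higher in A/J. How many reads of these families failed to align was not tested. Across the 280 called genes, 37 belonged to 31 such families, and 18 of the 31 families were still called when summed. Of the 48 genes, 16 belonged to 12 families, and 5 of the 12 were still called when summed. Over the whole summed fit, 295 of 15206 genes or families tested were called. These families were picked because a member was called, and the share of all tested genes that belong to a family is not given. No enrichment is read from these counts.

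Rnaset2b (chr17:7183209-7202542), which encodes a lysosomal ribonuclease, had a count of 0 in all 6 A/J samples and lay at 23.4, 93.5 and 310 CPM in SWR/J. With a floor of 3 counts over the A/J group, this is at least 2462-fold higher in SWR/J (adjusted p = 0.000559). The gene had 24 counts in 1 of the 2 A/J libraries that failed quality control, which are not part of this fold. Its copy Rnaset2a differs from it at 2 of 1013 bases. Rnaset2a lay between 139 and 313 CPM in A/J and between 0 and 209 CPM in SWR/J (adjusted p = 0.674), and the sum of the pair was not called (log2 fold change −0.67 ± 0.35 SE, adjusted p = 0.267). Levels of single members of these families are therefore uncertain. Rps24-ps3 and Gm6736 kept their difference as families. Rps24-ps3, a sequence like a small-subunit ribosomal protein gene, was at 20.1 to 89.8 CPM in A/J and 436 to 1948 CPM in SWR/J, and its family differed by −3.42 ± 0.50 SE (adjusted p = 0.00516). Gm6736 was at 3.87 to 8.19 CPM in A/J and 66.7 to 137 CPM in SWR/J, and its family differed by −2.70 ± 0.26 SE (adjusted p = 0.000134). Other called genes with near-identical copies were Hmga1, an architectural chromatin protein (log2 fold change −4.07, 0.958 to 11 CPM in A/J and 66.9 to 147 CPM in SWR/J), and Rpl19-ps12 (−7.58). Ahcy, which hydrolyses S-adenosylhomocysteine, was higher in A/J (4.31, adjusted p = 0.0206), while its copy Gm4737 was at 9.68 to 24.9 CPM in A/J and 38 to 214 CPM in SWR/J (adjusted p = 0.0807). The Hmga1, Ahcy and Rpl19-ps12 families were not called when summed (adjusted p = 0.522, 0.871 and 0.455).

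**Figure D2:**
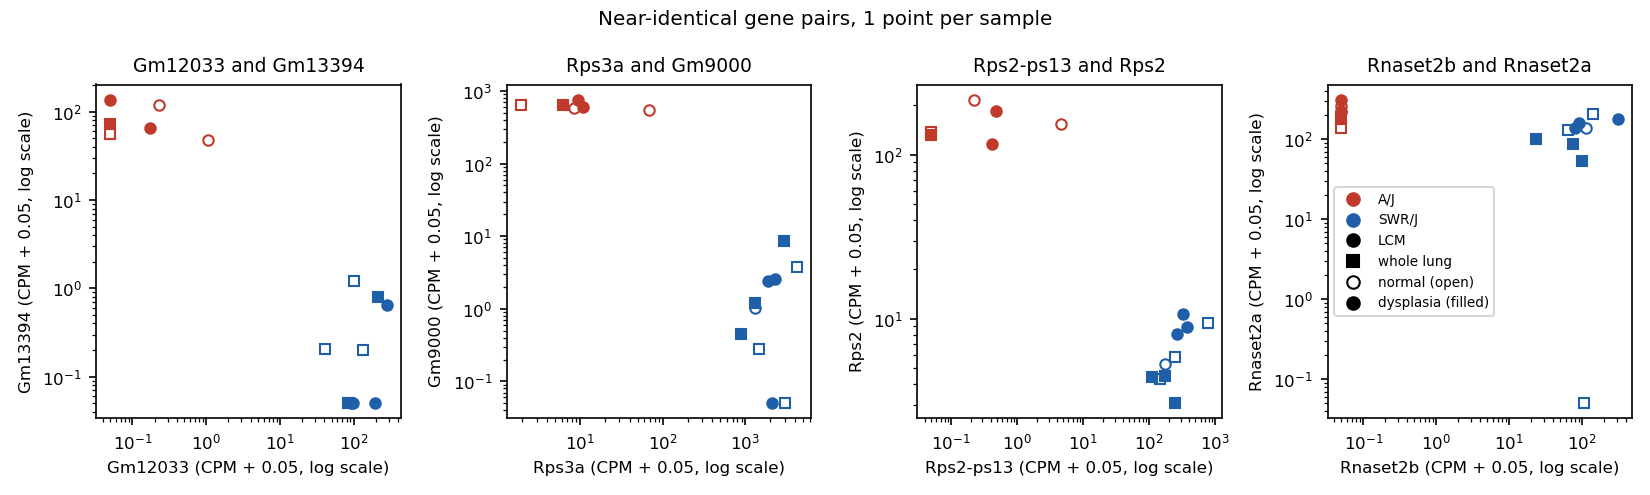
Levels of 4 near-identical pairs in the 16 samples (CPM plus 0.05 on log axes), 1 point per sample, red for A/J and blue for SWR/J, circles for LCM, squares for whole lung, open for normal and filled for dysplasia. In the first 3 panels the strains sit in opposite corners, and in the last, Rnaset2b is 0 in the 6 A/J samples and Rnaset2a is 0 in 1 SWR/J sample.

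The other part of the 48 genes, 27 of them, had less than 50% of the transcript in near-identical copies. Glo1 (chr17:30729811-30749604), the glyoxalase that detoxifies methylglyoxal, lies in a segment of chromosome 17 that is known to be duplicated in some inbred strains. Glo1 was at 254, 281 and 315 CPM in A/J and at 53.7, 84 and 185 CPM in SWR/J, with no overlap. Its log2 fold change was 2.54 ± 0.22 SE (adjusted p = 4.65e-05) and 1.51 without the TIN term (adjusted p = 0.0315). Btbd9, the next tested gene on 1 side, rose by 1.42 ± 0.24 SE (adjusted p = 0.0106), from 8.43 to 27.4 CPM in SWR/J to 24.1 to 37.6 CPM in A/J, where 1 SWR/J sample reached into the A/J range. Zfand3 beyond Btbd9 was not called (0.37 ± 0.18 SE, adjusted p = 0.241). Dnahc8 on the other side of Glo1 was not called with the TIN term (1.77, adjusted p = 0.304) and was called without it (3.22, adjusted p = 0.0414). The pseudogene Gm13443 on chromosome 2, a copy of part of Glo1, was also higher in A/J (2.38, adjusted p = 0.00369).

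Baiap2l1 (chr5:145025395-145118981) encodes a protein that links membranes to the actin cytoskeleton. It was at 53.4, 154 and 252 CPM in A/J and at 2.5, 20.6 and 52.6 CPM in SWR/J (log2 fold change 3.82 ± 0.63 SE, adjusted p = 0.0081). The groups met but did not overlap, and the lowest A/J value was that of the normal whole lung sample. C530028O21Rik (chr6:124946712-124953114) was at 7.77 to 20.8 CPM in A/J and 0 to 1.04 CPM in SWR/J (4.70 ± 0.70 SE, adjusted p = 0.00414). D17H6S56E-5, within the histocompatibility region, was at 96.8, 136 and 222 CPM in A/J and at 4.25, 8.39 and 19.3 CPM in SWR/J (3.0 ± 0.46 SE, adjusted p = 0.00481). Msh5, a meiotic MutS homologue, starts nearby and is outside the set of 48. It was at 6.08 to 30.4 CPM in A/J and 0.386 to 3.22 CPM in SWR/J (2.66 ± 0.50 SE, adjusted p = 0.0188).

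Among genes higher in SWR/J, Ctse (chr1:133534883-133572080) encodes cathepsin E, an intracellular aspartic protease. It was at 0.426, 1.59 and 2.71 CPM in A/J and at 3.11, 41.5 and 156 CPM in SWR/J (log2 fold change −6.90 ± 0.88 SE, adjusted p = 0.00138). All A/J samples were below all SWR/J samples, and the lowest SWR/J values were those of 2 LCM dysplasia samples. Isoc2b was at 0.31 to 2.34 CPM in A/J and 7.59 to 23.1 CPM in SWR/J (−3.41 ± 0.45 SE, adjusted p = 0.00177). Bst1, an ectoenzyme that acts on NAD, was at 0.234 to 0.93 CPM in A/J and 1.87 to 28.8 CPM in SWR/J (−3.81 ± 0.64 SE, adjusted p = 0.00987). Zfp949, Metap1d (a mitochondrial methionine aminopeptidase) and Serpina3h were also in the set of 48, with log2 fold changes of −3.25, −2.04 and −3.91. Gm5356 was at 0 to 0.39 CPM in A/J and 4.51 to 20.1 CPM in SWR/J (−7.62 ± 0.76 SE, adjusted p = 0.000171), with 47.7% of its transcript in near copies of Psmb3, a proteasome subunit gene.

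**Figure D3:**
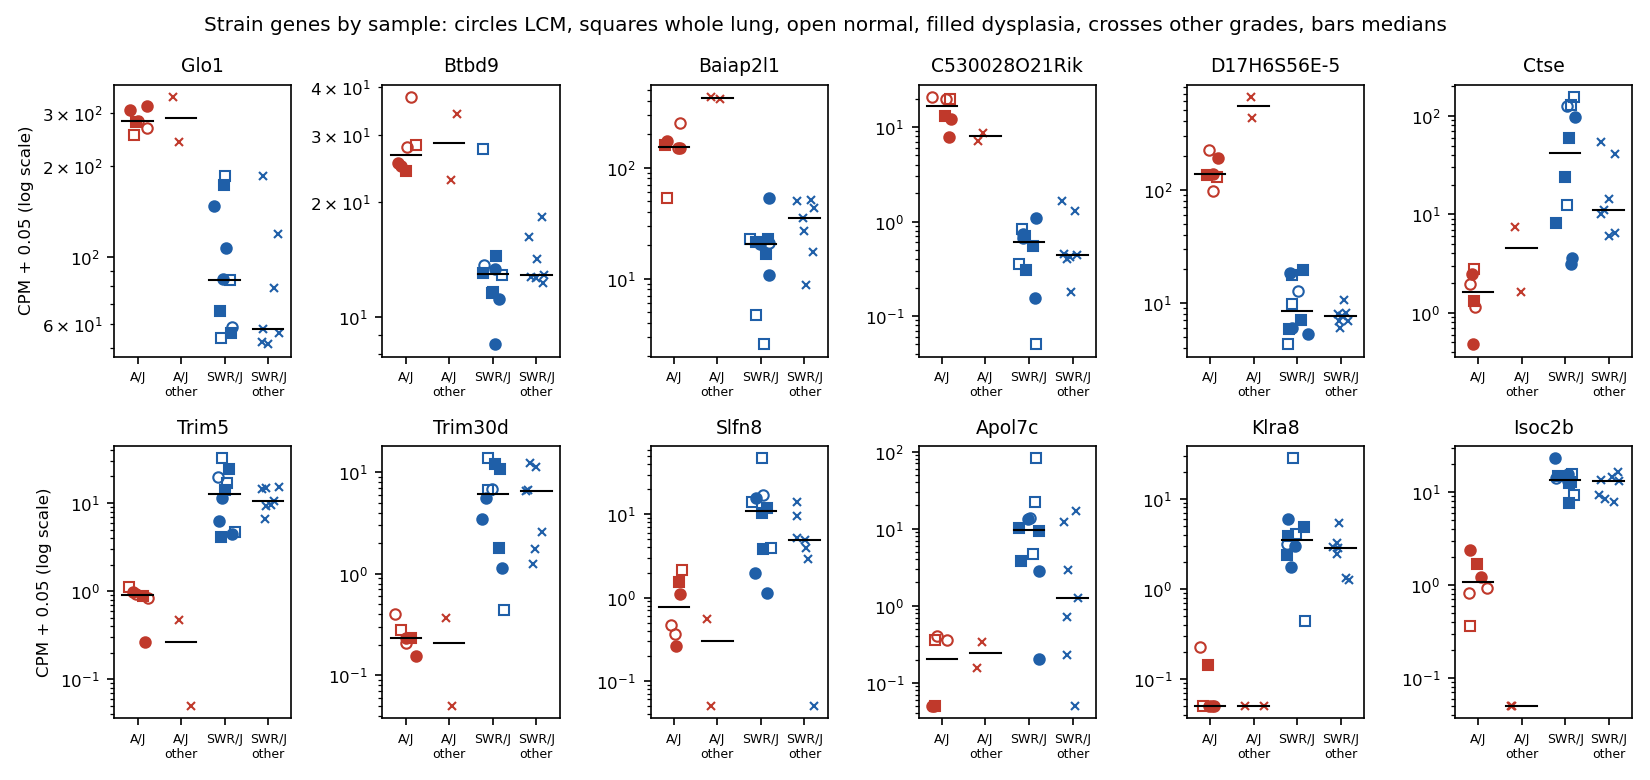
CPM (plus 0.05, log axes that differ between panels) of 12 genes called for strain, 1 point per sample, in A/J (red) and SWR/J (blue), with circles for LCM, squares for whole lung, open for normal and filled for dysplasia. Crosses are the 9 samples of other grades and bars are medians. For 9 of the 12 genes the 16 samples of the strains do not overlap, with Btbd9, Slfn8 and Apol7c as the exceptions.

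Called genes lay together at several places. Regions are sets of at least 3 called genes whose starts are less than 1 Mb apart, in coordinates of NCBIM37. Not all regions that met this rule are described. Those left out include chr8:72134756-74131835, with 4 of 78 tested genes called (5.13%). At chr1:173159703-174480937, 4 of 44 (9.09%) were called, 2 in each direction. With the 48 genes alone, regions remained on chromosomes 4 and 7. Their limits are those of the called genes themselves, so the share called within a region is raised by its definition. Over all genes tested, 1.8% were called. At chr4:145100662-147183895, 7 of 13 tested genes (53.8%) were called, all higher in SWR/J, and 6 of the 7 are among the 48 genes. They include Gm13225 (0 to 0.155 CPM in A/J, 2.34 to 30.1 CPM in SWR/J, log2 fold change −8.80, adjusted p = 4.65e-05) and Gm13154 (−6.67, adjusted p = 4.15e-05). 2610036A22Rik was at 0 to 0.62 CPM in A/J and 7.71 to 14.1 CPM in SWR/J (−4.92, adjusted p = 0.000559), and 98.7% of its transcript lies in near-identical copies. Gm13212, Gm13166 and 2610305D13Rik were lower in A/J by 3.42, 4.93 and 2.55 on the log2 scale. Many of these genes resemble each other, and how many reads of either strain failed to align here was not tested.

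At chr7:111392971-111656363, 4 of 9 tested genes were called, all higher in SWR/J. The TRIM genes found there encode ring finger proteins, several of which restrict retroviruses. Trim5 was at 0.213, 0.856 and 1.08 CPM in A/J and at 4.03, 12.6 and 32 CPM in SWR/J (log2 fold change −5.28 ± 0.47 SE, adjusted p = 5.76e-05). Trim30d was at 0.106 to 0.354 CPM in A/J and 0.386 to 13.6 CPM in SWR/J (−6.25 ± 0.59 SE, adjusted p = 9.61e-05). At chr15:77252640-78093010, Apol7c and Apol7b, which encode apolipoprotein L proteins, were at 0 to 0.354 and 0.0591 to 0.387 CPM in A/J, and at 0.156 to 81.5 and 0 to 22.5 CPM in SWR/J (log2 fold changes −7.75 and −6.35). Their ranges overlapped because of low SWR/J samples. The transcript of Apol7b lies in near-identical copies (100%), so its own level is uncertain. Its family was still called when summed (−4.80 ± 1.01 SE, adjusted p = 0.032). Of the 2 genes in this family only 1 was tested by itself, so the sum does not settle the level of Apol7b. Of 12 tested genes in this region 3 were called, the other being Ncf4, also higher in SWR/J. At chr11:82815660-83882763, Slfn8, a member of the schlafen family of interferon-inducible genes, was at 0.213 to 2.09 CPM in A/J and 1.09 to 46.9 CPM in SWR/J (−4.96 ± 0.70 SE, adjusted p = 0.00294). Its neighbour Slfn2 was called with the TIN term (−2.04, adjusted p = 0.0096) and not without it (−0.69, adjusted p = 0.507). Of 26 tested genes in this region 3 were called. The other, Dusp14, was higher in A/J with the TIN term (2.66) and lower without it (−1.12).

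The Ly49 receptors, encoded by the Klra genes of the natural killer gene complex on chromosome 6, bind class I histocompatibility molecules. Of 12 tested members of the list for this complex, 3 were called, all higher in SWR/J, against 1.36% of all genes called in that direction. The median log2 fold change of the list was −2.11 with the TIN term (all genes −0.09) and −0.87 without it (all genes 0.03). Klra8 had 4 counts in total in the A/J samples and was at 0.386, 3.45 and 28 CPM in SWR/J (adjusted p = 0.00177), with no overlap between the strains. Of its transcript, 93.5% lies in near-identical copies, so the level of this single gene is uncertain. Its family was still called when summed (−7.42 ± 0.87 SE, adjusted p = 0.00092). Of the 3 genes in this family only 1 was tested by itself, so the sum adds little to the result of Klra8. Klra1 was at 0.213 to 0.827 CPM in A/J and 0 to 19.9 CPM in SWR/J (−5.77 ± 1.15 SE, adjusted p = 0.0234). Klra17 was at 0.118 to 1.28 CPM in A/J and 0.834 to 16.2 CPM in SWR/J (−3.80 ± 0.76 SE, adjusted p = 0.0241). Klra1 and Klra17 were not called without the TIN term (adjusted p = 0.134 and 0.0924).

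The histocompatibility region held the largest number of called genes, 21 of 131 tested at chr17:34272127-36308750 (16%). Its limits too are those of the called genes. Of the 21, 17 were higher in SWR/J and 4 higher in A/J. Only 2 of the 21 were in the set of 48 genes, H2-Eb1 and D17H6S56E-5, both higher in A/J. Class II molecules present peptides to helper T cells as pairs of an alpha and a beta chain, the A pair (H2-Aa and H2-Ab1) and the E pair (H2-Ea and H2-Eb1). A/J carries the a haplotype and SWR/J the q haplotype of this region, and mice of the q haplotype are known to lack E molecules. H2-Eb1 was at 86, 165 and 236 CPM in A/J and at 4.83, 12 and 86.4 CPM in SWR/J. It rose towards A/J by 2.18 ± 0.35 SE on the log2 scale (adjusted p = 0.00688) and was in the set of 48 genes. Of the class II list, 1 of 12 tested genes was called higher in A/J, against 0.436% of all genes. In SWR/J, 4 of the 12 were called higher, against 1.36% of all genes. The 4 were H2-Aa (−2.50 ± 0.51 SE, adjusted p = 0.0264), H2-Ab1 (−1.98 ± 0.38 SE, adjusted p = 0.0203), H2-DMa (−1.55) and H2-DMb2 (−1.80). None of these 4 was called without the TIN term (adjusted p = 0.2, 0.11, 0.378 and 0.439), and the median of the class II list was −1.68 with the term and −0.63 without. H2-Aa lay at 194, 383 and 393 CPM in A/J and at 277, 541 and 5808 CPM in SWR/J, where the groups overlapped. H2-Ea-ps, the annotated E alpha gene, which is not functional in the reference strain, was at 88.4, 143 and 160 CPM in A/J and at 2.01, 12.8 and 107 CPM in SWR/J. It missed the threshold with the TIN term (1.86 ± 0.50 SE, adjusted p = 0.0727) and passed it without (3.22, adjusted p = 0.0158).

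The highest SWR/J value of H2-Eb1, H2-Ea-ps and H2-Aa was that of SWR/J whole lung normal replicate 3, which also held the highest summed level of the B cell list (2153 CPM). Relative to H2-Aa in the same sample, the E genes were far apart between the strains. H2-Eb1 reads were 40%, 44.2% and 60.2% of H2-Aa reads in A/J (lowest, median, highest) and 1.23%, 1.74% and 2.52% in SWR/J. H2-Ea-ps reads were 30.5% to 45.5% of H2-Aa reads in A/J and 0.427% to 2.74% in SWR/J. H2-Ab1, the partner of H2-Aa, was at 40.3% to 78.6% in A/J and 28% to 71% in SWR/J, so that this ratio overlapped. In the 9 samples of other grades H2-Eb1 was at 36.7% to 40.6% of H2-Aa in 2 A/J samples and 1.23% to 2.95% in 7 SWR/J samples. The two-sided exact permutation p there was 0.0556 for H2-Eb1 and 0.333 for H2-Ab1. With 36 splits of these samples it could not be below 0.0556, and strain and grade cannot be told apart there. No conclusion is drawn from this test. These ratios were chosen after the values were seen.

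Class I molecules present peptides to cytotoxic T cells. Of 25 tested genes of the class I list, none was called higher in A/J and 4 were called higher in SWR/J. The shares over all genes were 0.436% and 1.36%. The list median was −1.46 with the TIN term and −0.49 without. H2-D1, a classical class I heavy chain, was at 666, 687 and 904 CPM in A/J and at 976, 1377 and 3741 CPM in SWR/J with no overlap (−1.36 ± 0.28 SE, adjusted p = 0.0287). H2-Bl (−2.76, adjusted p = 0.0114), H2-Q4 (−1.97, adjusted p = 0.0327) and the second of the annotated H2-Q2 loci (−5.56, adjusted p = 0.0265) overlapped between the strains. None of the 4 was called without the TIN term (adjusted p from 0.0955 to 0.709). The haplotypes differ in sequence and in the number of class I genes, so the level of single members is uncertain. 2410017I17Rik, in the same region, was at 0.246 to 3.8 CPM in A/J and 0.252 to 49.8 CPM in SWR/J (−4.49 ± 0.78 SE, adjusted p = 0.0122, and 0.0792 without the TIN term).

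**Figure D4:**
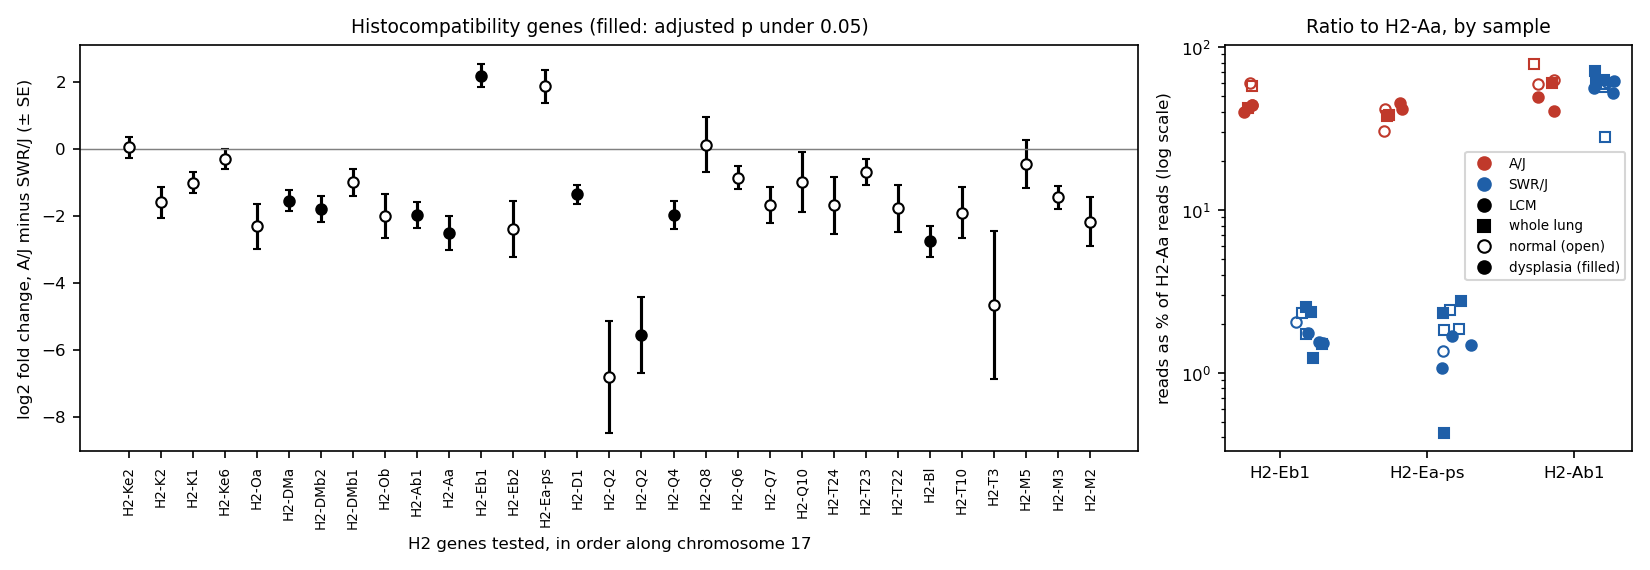
Left, log2 fold changes (A/J minus SWR/J, bars ± SE) of the histocompatibility genes tested in their order along chromosome 17, filled where the adjusted p is under 0.05, with H2-Eb1 the filled gene above 0. Right, reads of H2-Eb1, H2-Ea-ps and H2-Ab1 as a percentage of H2-Aa reads in each of the 16 samples (log axis, symbols as in the legend), with A/J above 30% and SWR/J below 3% for the first 2 genes and an overlap for H2-Ab1.

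Of the 232 called genes outside the set of 48, 19 were called without the TIN term. Among genes higher in A/J, Gstm6, a glutathione transferase, was at 5.73, 14.9 and 32 CPM in A/J and at 0.683, 1.51 and 34.4 CPM in SWR/J. Its log2 fold change was 4.90 ± 0.65 SE (adjusted p = 0.0019) with the TIN term and 1.04 (adjusted p = 0.616) without it. Me1, the cytosolic malic enzyme that makes NADPH, fell likewise from 2.89 (adjusted p = 0.0148) to 0.71 (adjusted p = 0.63). Nqo1, a quinone reductase, was at 11.5 to 64.6 CPM in A/J and 3.29 to 129 CPM in SWR/J, and its estimate was 2.59 (adjusted p = 0.0124) with the term and −0.37 (adjusted p = 0.852) without. Mgst2, a microsomal glutathione transferase, and Oasl1, an interferon-stimulated gene, turned from 1.67 and 2.39 to −0.66 and −0.70. Igfbp2, Spint1, Fbp1 and Itln1, with log2 fold changes of 3.98, 3.10, 5.66 and 6.38, were not called without the TIN term (adjusted p from 0.365 to 0.835). Their strain ranges overlapped, and Fbp1 and Itln1 were called in only 4 and 3 of the 16 fits that left out 1 sample.

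Several leukocyte genes, chosen after their values were seen, were called higher in SWR/J with the TIN term. Ltb, a lymphotoxin chain, was at 7.34 to 122 CPM in A/J and 4.14 to 862 CPM in SWR/J (−3.02 ± 0.63 SE, adjusted p = 0.0289). Aif1 (−2.35), Fcer1g (−1.74), Cd48 (−2.28), Irf8 (−1.70), Gimap6 (−1.84) and Gimap7 (−4.32) were called as well, and none of these 7 was called without the TIN term (adjusted p from 0.0702 to 0.787). None of the 12 T cell markers was called, with a list median of −3.13 with the term and −0.65 without. The summed T cell markers ranged from 26.5 to 4076 CPM in A/J and from 24 to 6590 CPM in SWR/J, and the B cell markers from 28.8 to 219 CPM and from 15.3 to 2153 CPM. The part of lymphocyte content in these differences was not tested gene by gene. With the mean T cell marker level as a covariate, chosen after seeing the data, 185 genes were called, 160 of them among the 280 and including all 48. The 48 had been chosen for staying called across fits. T cell markers also do not stand for other leukocytes. The highest summed T cell level was in SWR/J whole lung normal replicate 1 and the highest B cell level in replicate 3. No conclusion on lymphocyte content is drawn from this fit.

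The complement list had 2 of 27 tested genes called, both higher in SWR/J, against 1.36% of all genes called in that direction. They were Cfp, the properdin gene (−1.74 ± 0.26 SE, adjusted p = 0.00421), and C1qa (−1.61 ± 0.38 SE, adjusted p = 0.0477), and neither was called without the TIN term (adjusted p = 0.306 and 0.118). Of the 71 tested genes of carcinogen metabolism, 3 were called higher in A/J (Gstm6, Mgst2 and Nqo1) and none higher in SWR/J. The shares over all genes were 0.436% and 1.36%. The list median was 1.12 with the TIN term and 0.22 without it. Ahr, the receptor that induces several of these enzymes, was at 26.8 to 66.5 CPM in A/J and 10.5 to 81.6 CPM in SWR/J and was not called (1.30 ± 0.51 SE, adjusted p = 0.177). Of the 45 genes for repair of alkylated DNA, 0 were called by edgeR and 1 by DESeq2, with a list median of −0.53 with the TIN term and −0.09 without. An unadjusted p under 0.05 was found for 9 of the 45 (20%), against 3371 of all 15587 genes (21.6%), and the 9 were higher in SWR/J. Mgmt, which removes alkyl groups from guanine, was at 4.03, 13.4 and 25.2 CPM in A/J and at 7.03, 15 and 55.7 CPM in SWR/J (0.06 ± 0.57 SE, adjusted p = 0.957). Of the 48 tested interferon-stimulated genes, 1 was called (Oasl1), against 1.8% of all genes. The list median was −0.56 with the TIN term and 0.20 without.

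Hc, the gene of complement component 5, was at 0.413 to 117 CPM in A/J and 0.209 to 112 CPM in SWR/J (3.78 ± 2.41 SE, adjusted p = 0.359). Of 23 tested genes known to vary between inbred strains, 2 were called (Glo1 and Btbd9), against 1.8% of all genes. In the 18 lists of cell type markers 0 of 189 genes were called by edgeR with the TIN term, 36 (19%) had an unadjusted p under 0.05, against 21.6% of all genes, and 31 were called by DESeq2. This pooled share varied between the lists, which are small. It was 55.6% of 9 B cell markers, all higher in SWR/J. It was 50% of 10 alveolar type 1 and 41.7% of 12 endothelial markers, all higher in A/J. Other lists, such as ciliated cell, smooth muscle and neutrophil, were at 0%. The medians of squamous markers (2.99 with the term and −3.18 without) and basal markers (1.19 and −0.22) changed sign, while those of alveolar type 2 (2.30 and 1.39), alveolar type 1 (1.82 and 1.30) and endothelial markers (1.59 and 1.51) did not. The summed squamous markers ranged from 23.6 to 4713 CPM in A/J and from 120 to 116791 CPM in SWR/J.

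**Figure D5:**
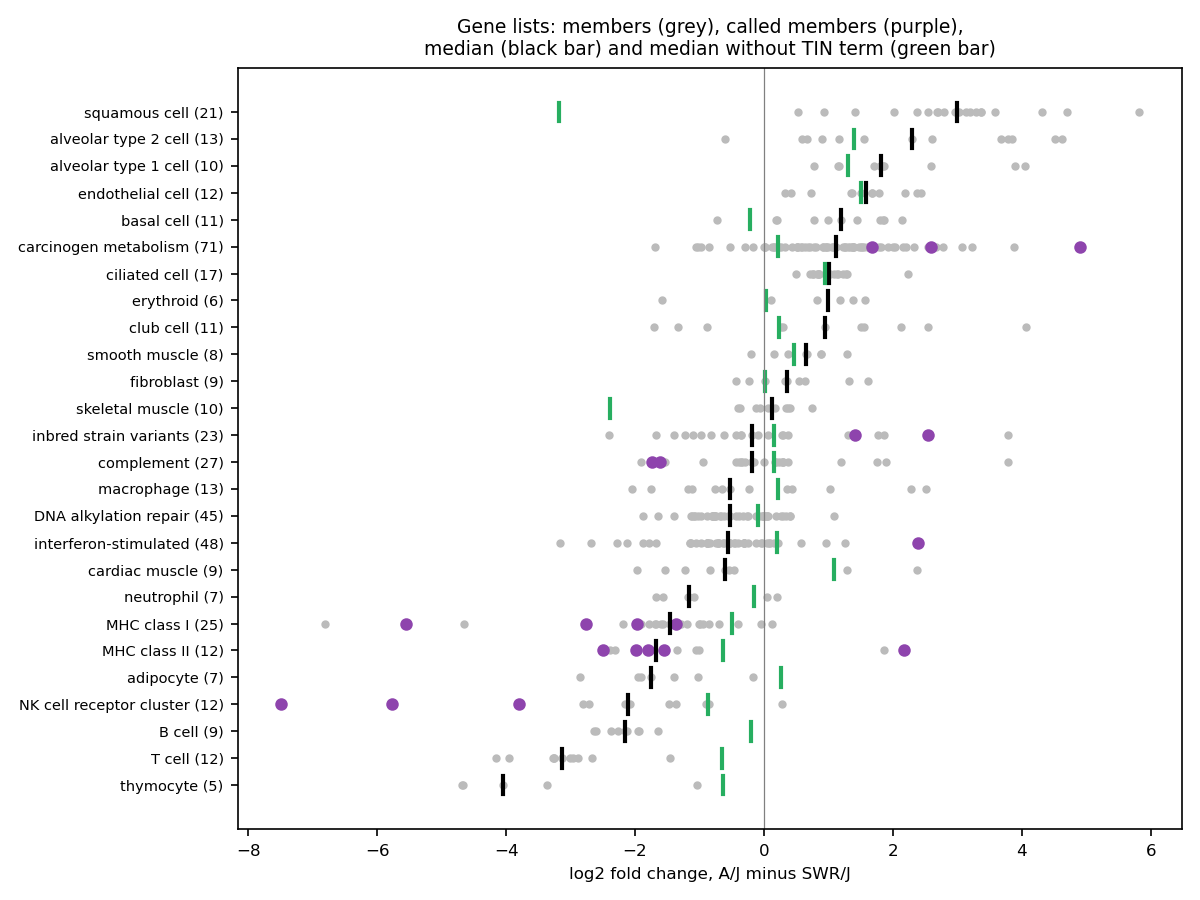
Log2 fold changes (A/J minus SWR/J) of the members of each gene list, with the number tested in brackets, grey where not called and purple where the adjusted p is under 0.05. Black bars are medians with the TIN term and green bars medians without it, and the largest distance between them is that of the squamous markers (2.99 and −3.18).

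The strain difference was also estimated within each grade, as contrasts of a model with a strain by grade term. This model was fitted to all 16 samples, so the spread and the TIN term came from both grades. Fits to the samples of 1 grade alone called 0 genes in normal and 21 in dysplasia samples. In the shared model, 72 genes (0.462%) were called among normal samples, 65 of them among the 280. Among dysplasia samples it called 31 genes (0.199%), 30 of them among the 280. Leaving out 1 sample gave between 21 and 378 calls in the normal and between 8 and 46 in the dysplasia samples. The test of a difference between the grades called 0 of 15587 genes by edgeR (467 with an unadjusted p under 0.05) and 6 by DESeq2, with 1 call by edgeR when SWR/J whole lung normal replicate 3 was left out. The test of a difference between LCM and whole lung called 0 genes by edgeR (691 with an unadjusted p under 0.05) and 6 by DESeq2. Glo1 differed by 2.45 in normal and by 2.62 in dysplasia samples (adjusted p = 0.00171 and 0.000836), and Trim5 by −5.29 and −5.28 (adjusted p = 0.00174 and 0.00307). H2-Eb1 differed by 1.88 in normal (adjusted p = 0.0658) and 2.51 in dysplasia samples (adjusted p = 0.0282), and the difference between these was not called (unadjusted p = 0.222).

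The 9 samples of other grades that had passed quality control were not used to choose any gene. They held 2 A/J samples (1 LCM tumor and 1 whole lung carcinoma in situ) and 7 SWR/J samples (mild or severe dysplasia), so strain and grade cannot be told apart there. On their own they gave 223 calls for strain (1.43% of 15559 genes), 15 of them among the 280. Of the 280 genes, 270 were tested in them and 205 (75.9%) had the same sign, against 58.4% of all 15159 genes tested in both sets. An unadjusted p under 0.05 with the same sign was found for 95 (35.2%), against 12.3% of all genes. Among called genes higher in SWR/J, 173 of 207 kept the sign, and among those higher in A/J, 32 of 63. Of the 48 genes, 45 were tested and 44 had the same sign, 35 of them with an unadjusted p under 0.05. The exception was Serpina3h (0.25, unadjusted p = 0.849). H2-Eb1 differed by 0.34 ± 1.07 SE there (unadjusted p = 0.758). Baiap2l1 was at 415 and 433 CPM in the 2 A/J samples and at 8.63 to 51 CPM in the 7 SWR/J samples (5.60 ± 0.64 SE, unadjusted p = 1.91e-05). D17H6S56E-5 was at 431 and 659 CPM against 5.97 to 10.5 CPM, and Glo1 at 240 and 339 CPM against 51.2 to 186 CPM (log2 fold change 0.51 ± 0.47 SE after adjustment for TIN, unadjusted p = 0.312). Gstm6 (−0.75, unadjusted p = 0.634), Me1 (−1.51, unadjusted p = 0.125) and Nqo1 (−2.89, unadjusted p = 0.00225) had the opposite sign.

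Of the set of 48, 7 genes were also looked up in the 15 libraries that had failed quality control, which were in no comparison and summed to between 17051 and 1965373 counts. Rps3a was at 0 and 35.6 CPM in the 2 A/J libraries and at 352 to 4288 CPM in the 13 SWR/J libraries. Gm9000 was at 2210 and 2880 CPM in the A/J libraries and at 0 to 352 CPM in the SWR/J libraries. Rnaset2b was at 0 and 91.3 CPM (24 counts) in the A/J libraries and at 0 to 284 CPM in the SWR/J libraries, so that it was not at 0 in every A/J library of the series. D17H6S56E-5 overlapped as well, at 109 and 167 CPM in A/J and 0 to 224 CPM in SWR/J. Rps24-ps3 was at 94.8 and 186 CPM in A/J and 293 to 2913 CPM in SWR/J, while Gm6736 and Rps2-ps13 were at 0 CPM in both A/J libraries and at 0 to 215 and 0 to 291 CPM in SWR/J. Among the A/J samples in the comparison, LCM normal replicate 1 had the highest sum of 7 genes of the set of 48, of which 5 had reads there. The 7 were Rnaset2b, Gm12033, Gm13225, Gm5356, 2610036A22Rik, Rps2-ps13 and Rpl19-ps12. Other genes of the set were near 0 in A/J too, such as Gm13154 (0 to 0.183 CPM) and Klra8 (0 to 0.177 CPM), and are not included. The sum was 1.52% of the sum of the SWR/J medians, against 0.0961% to 0.222% in the other 5 A/J samples. It was not the highest sample for each gene, since Rnaset2b was 0 in all 6 samples and the highest A/J values of Gm13225 and 2610036A22Rik were in whole lung. Its Rps3a level of 68.6 CPM was the highest of the A/J samples, and the count of called genes without this sample was 241.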

How the data were processed

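RNA-seq of LCM and whole lung samples was deposited by the authors as RSEM expected counts, not normalized, after Trimmomatic, 2-pass STAR alignment to mm9 (50-nt single-end, unstranded reads) and RSEM with Ensembl annotation, whose release is not given in the sources used here. All 37310 gene identifiers matched a GENCODE annotation of NCBIM37. Expected counts were rounded. Genes with an interquartile range above 0 and summed log2 CPM (prior count 2) above 1 were tested in edgeR 4.0.16 (R 4.3.3) by the quasi-likelihood test (robust, TMM scaling), with median TIN, tissue, grade and strain as terms and Benjamini-Hochberg adjustment over all genes. The standard error is the log2 fold change divided by the square root of F. Alternatives used DESeq2 1.42.0 and limma 3.58.1. Near-identical copies were found with blastn 2.17.0 among the longest transcripts (at least 95% identity over 50 bases), and families joined genes covering 80% of the shorter and 50% of the longer transcript. The tests were tried on simulated data. Reads were unstranded, so overlapping antisense genes cannot be told apart. Counting error alone is in the floor of 3 counts.

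Samples were grouped by strain, tissue and grade from the labels. Named genes were, among called protein-coding genes with mean log2 CPM of at least 1 and 1 direction in the 4 combinations of tissue and grade, the 12 with the largest change towards each strain, up to 4 called members of each list, and H2-Ea-ps, H2-Eb1, H2-Aa, H2-Ab1, Hc, Dysf, Glo1, Ahr and Mgmt. A gene that the naming rule also covered, and the list around it, are not reported here. The other genes named, among them those of the set of 48, were chosen after their values were seen. The comparison, the members and the lists were chosen with earlier results of these data known. Samples of other grades and those that failed quality control were used as described.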

Additional observations from a re-analysis of the deposited data

Results flagged for a closer look

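Of 148 groups of values (74 named genes in 2 strains), 20 held a sample far from the others by Dixon's criterion, of which chance flags about 1 in 20 groups. In A/J, LCM normal replicate 1 stood above the others for Gm12033 (1.02 CPM, others 0 to 0.177), Gm5356 (0.39 CPM, others 0 to 0.0615), Rps2-ps13 (4.61 CPM, others 0 to 0.426) and Btbd9 (37.6 CPM, others 24.1 to 28.2). The first 3 are genes near 0 in the other A/J samples and high in SWR/J. A/J LCM normal replicate 2, the sample whose description reads mild dysplasia, was high for Oasl1 (13.8 CPM) and Amd2 (2.07 CPM, others 0). A/J LCM dysplasia replicate 2 was low for Trim5 (0.213 CPM), H2-Aa (194 CPM, others 368 to 393) and Irf8 (12.5 CPM). The A/J whole lung normal sample was low for Baiap2l1 (53.4 CPM, others 149 to 252) and Dysf (1.32 CPM), and the A/J whole lung dysplasia sample was low for Mgst2 (22 CPM).

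In SWR/J, whole lung normal replicate 3 was high for H2-Aa (5808 CPM, others 277 to 1391), H2-D1 (3741 CPM), Cfp (143 CPM), C1qa (367 CPM) and Aif1 (138 CPM). Whole lung normal replicate 2 was high for Btbd9 (27.4 CPM, others 8.43 to 14.4), whole lung dysplasia replicate 3 for Fbp1 (46.3 CPM, others 0 to 2.75), and LCM dysplasia replicate 2 for Mgmt (55.7 CPM, others 7.03 to 18.4).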

How the results depend on the processing

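No paired analysis was possible because the labels give no replicate numbers that the strains share. The count of 280 called genes was 136 without the TIN term, 1751 with DESeq2 (885 higher in A/J), 0 in LCM samples alone (2952 with an unadjusted p under 0.05), 3 in whole lung samples alone, 0 in normal samples alone (1827 with an unadjusted p under 0.05), 21 in dysplasia samples alone and 159 in all 25 samples that passed quality control. The share higher in A/J was 68 of 280 with the TIN term and 68 of 136 without it. Limma voom (249), RLE size factors (287), filterByExpr (334) and no filter (263) were within 1.5 times. Of alternatives chosen after seeing the data, leaving out the 2 samples of median TIN under 30 gave 59, the T cell covariate 185 and summed copies 295. The 48 genes were all called with DESeq2, RLE size factors, filterByExpr, no filter and the T cell covariate. Of the 48, 46 were called with limma voom and 29 without the 2 samples of low TIN. These fits reuse the samples by which the 48 were chosen, so calls in them were likely from the start. Of those tested, 0 of 42 were called in LCM samples alone (27 with an unadjusted p under 0.05), 2 of 47 in whole lung alone, 0 of 48 in normal alone (48 with an unadjusted p under 0.05) and 16 of 47 in dysplasia alone, all with the same sign. Leaving out 1 sample gave 95 to 835 calls over the 16 samples, 21 to 378 within normal, 8 to 46 within dysplasia, 0 to 1 for the grade interaction, 0 for the tissue interaction in every case and 0 to 561 in the 9 other samples. The normal count of 72 was 29 without the TIN term and 1695 with DESeq2, the dysplasia count of 31 was 312 with DESeq2, and both interactions had 6 calls with DESeq2. The 223 calls in the 9 other samples, of which 15 were among the 280, became 2403 without the TIN term and 1330 with DESeq2, 0 without SWR/J whole lung mild dysplasia replicate 1 and 561 without replicate 2 of that group. Other samples that moved that count by over 1.5 times were SWR/J LCM mild dysplasia replicates 1 (123) and 2 (58), SWR/J whole lung severe dysplasia (31) and A/J whole lung carcinoma in situ (24). Within normal these were the A/J LCM normal replicates 1 (31) and 2 (24), A/J whole lung normal (378), A/J LCM dysplasia replicates 1 (42) and 2 (40), A/J whole lung dysplasia (32), SWR/J LCM normal (21), SWR/J whole lung normal replicates 1 (117) and 3 (33), SWR/J LCM dysplasia replicate 3 (33) and SWR/J whole lung dysplasia replicates 1 (45) and 3 (44). Within dysplasia they were A/J LCM dysplasia replicates 1 (16) and 2 (13), A/J whole lung dysplasia (8) and SWR/J whole lung normal replicate 2 (20). Signs turned without the TIN term for Nqo1 (−0.37), Mgst2 (−0.66), Oasl1 (−0.70) and Mgmt (−0.54), in LCM samples alone for Dysf (0.19), in whole lung alone for Mgmt (−0.23), without the 2 samples of low TIN for Hc (−0.33) and with the T cell covariate for Mgmt (−0.21). Leaving out 1 sample moved Mgmt between −0.20 and 0.42, with 6 fits below 0. The cause of these changes was not tested. With 6 A/J samples, a depth of 3447363 counts in the shallowest sample and TIN tied to strain, a gene that was not called is not shown to be equal between the strains.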
